A study of Mus musculus with 8 samples.

Results

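The genes described here are 8 mast cell genes: the proteases Mcpt1, Mcpt2, Mcpt4, Cma1, Tpsb2 and Cpa3 and the receptors Kit and Fcer1a. They are textbook markers of mast cells, were chosen with earlier results of these data known, and were found on the array through the transcript accession of each probe, and 10 probes represent them among 16306 genes with a named probe. RNA came from mucosa of the mouse colon at its middle part, which began 2.5 cm and ended 3.5 cm below the ileocecum, and of the rectum, taken as the 7 mm next to the anus. The mice were wild type (WT) or knockout for interleukin 18 (IL18ko), and their strain is not given in the labels. 5 brothers shared a cage until 10 to 12 weeks of age, when 3 of them were moved to single cages as an isolation stress. The stress mice were killed after 16 days alone according to the treatment protocol and after 8 days according to the design text, which could not be settled. The control mice were killed when the isolation of their brothers began, so housing and age go together. There are 8 groups (WT control, WT stress, IL18ko control and IL18ko stress, each in colon and in rectum), and 1 array per group was hybridised with RNA pooled in equal amounts from 5 mice. The groups therefore have no replicates, and the spread below is that between arrays of different mouse groups.

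Mast cells are resident immune cells that arise from bone marrow progenitors, depend on the growth factor receptor Kit and carry the high-affinity IgE receptor, whose binding subunit is Fcer1a. Their granules store serine proteases in amounts that differ by location. Mucosal mast cells of the mouse, which sit in the epithelium, store the chymases Mcpt1 and Mcpt2. Connective tissue mast cells, found in skin, submucosa and muscle, store the chymases Cma1 (mouse mast cell protease 5) and Mcpt4, the tryptase Tpsb2 (mouse mast cell protease 6) and the exopeptidase Cpa3. Kit is not specific to mast cells: in the gut it also marks the interstitial cells of Cajal, the pacemakers of the muscle wall.

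The promoters of 4 of these genes are shown because Cma1, Mcpt4 and Cpa3 had higher levels in rectum while Mcpt1, which lies in the same protease cluster on chromosome 14, had lower ones. Each is the 250 bases before the transcription start in RefSeq (build GRCm38.p6), 5′ to 3′ on the strand of the gene, with capitals marking TGATAA or AGATAA, or else TGATAG or finally AGATAG, on either strand, a form of the motif that GATA factors bind. The positions are chr14:56017714-56017963 (plus strand) for Mcpt1, chr14:56062311-56062560 (minus strand) for Mcpt4, chr14:55944676-55944925 (minus strand) for Cma1 and chr3:20242182-20242431 (minus strand) for Cpa3.
Mcpt1: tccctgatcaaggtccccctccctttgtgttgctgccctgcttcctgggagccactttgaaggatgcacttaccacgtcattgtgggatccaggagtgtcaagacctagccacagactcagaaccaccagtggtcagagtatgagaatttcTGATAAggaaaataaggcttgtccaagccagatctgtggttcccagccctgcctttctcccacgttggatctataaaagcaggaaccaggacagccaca
Mcpt4: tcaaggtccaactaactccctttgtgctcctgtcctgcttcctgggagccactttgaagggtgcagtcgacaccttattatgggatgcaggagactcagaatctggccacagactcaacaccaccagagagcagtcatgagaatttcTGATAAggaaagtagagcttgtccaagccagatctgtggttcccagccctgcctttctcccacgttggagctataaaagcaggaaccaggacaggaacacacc
Cma1: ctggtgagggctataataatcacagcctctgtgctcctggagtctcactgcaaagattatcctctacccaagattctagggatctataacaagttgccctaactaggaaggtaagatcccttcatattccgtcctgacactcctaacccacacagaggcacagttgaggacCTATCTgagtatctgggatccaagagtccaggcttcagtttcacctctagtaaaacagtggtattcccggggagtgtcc
Cpa3: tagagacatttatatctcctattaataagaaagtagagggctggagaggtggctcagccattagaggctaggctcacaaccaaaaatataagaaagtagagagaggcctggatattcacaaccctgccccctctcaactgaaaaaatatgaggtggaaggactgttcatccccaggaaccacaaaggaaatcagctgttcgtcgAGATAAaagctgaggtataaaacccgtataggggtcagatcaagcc
All 4 windows hold 1 such match, which begins at position -99 in Mcpt1, -103 in Mcpt4, -79 in Cma1 and -46 in Cpa3, counted back from the start. The window of Fcer1a also holds 1, at -92, and that of Kit holds none; 26.5% of 32851 promoter windows of the same length hold at least 1. The letters TATAAA on the strand of the gene begin at -28 in Mcpt1, -32 in Mcpt4, -31 in Cpa3 and -125 in Fcer1a, were not found in the windows of Cma1 and Kit, and occur in 7.59% of all windows. Aligned end to end, the windows of Mcpt1 and Mcpt4 were identical in 81.9% of 260 columns, against 51.3% for Mcpt1 and Cma1 and 54.1% for Mcpt4 and Cma1. Pairs of these genes on different chromosomes ran from 44.1% (Kit and Fcer1a) to 52.4% (Cma1 and Cpa3), so the values with Cma1 are near those of such pairs. The pair with the most similar promoters is thus also a pair whose levels differed between the tissues in opposite directions. A match is a description of these letters and not of a bound site. The windows of Mcpt2 and Tpsb2 were not analysed here.

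All levels are log2 intensities after division by the 75th percentile of the intensities on that array, so that negative values mean dimmer than that percentile, and levels of different probes are not compared. Between 62.2% and 66.4% of the 43379 spots of an array were well above background by the scanner's flag, and none was saturated. Il18 itself lay between 2.76 and 5.88 on the 4 WT arrays and did not rise above background in any IL18ko pool, as their labels have it. The intestinal epithelium markers were well above background throughout, and their summed level spanned 10.2 to 10.4 in colon and 10.1 to 10.4 in rectum. All colon arrays were on 1 slide and all rectum arrays on another, which means that slide and tissue cannot be told apart, and the position on the slide goes with the mouse group. In a mucosal sample, fewer mast cells and less RNA per mast cell cannot be told apart either.

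Rectum and colon were called different in 6 of the 8 genes: Mcpt4, Cma1, Cpa3 and Fcer1a were higher in rectum, and Mcpt1 and Kit were lower. The chymase Cma1 stood out by size, with a level in rectum 41.0-fold that in colon. Mcpt2 and Tpsb2 were too close to background to be tested. The test was limma's on the difference between rectum and colon within each of 4 mouse groups, with Benjamini-Hochberg adjustment over the 26263 probes that passed the background flag on 4 or more arrays, and calls were made at an adjusted p under 0.05. By the same test 27.0% of all probes were called, in either direction, and the median difference over 12711 genes was 0.03. The 6 genes also had no overlap between the 4 rectum and the 4 colon arrays, as had 30.8% of all tested probes. Fcer1a and the dimmer probes of Cma1 and Mcpt4 passed the filter only through their rectum arrays and Cpa3 nearly so, which by itself favours a difference. The count of 6 thus supports nothing beyond the single genes, and the call of Fcer1a adds no support even for that gene.

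**Figure D1:**
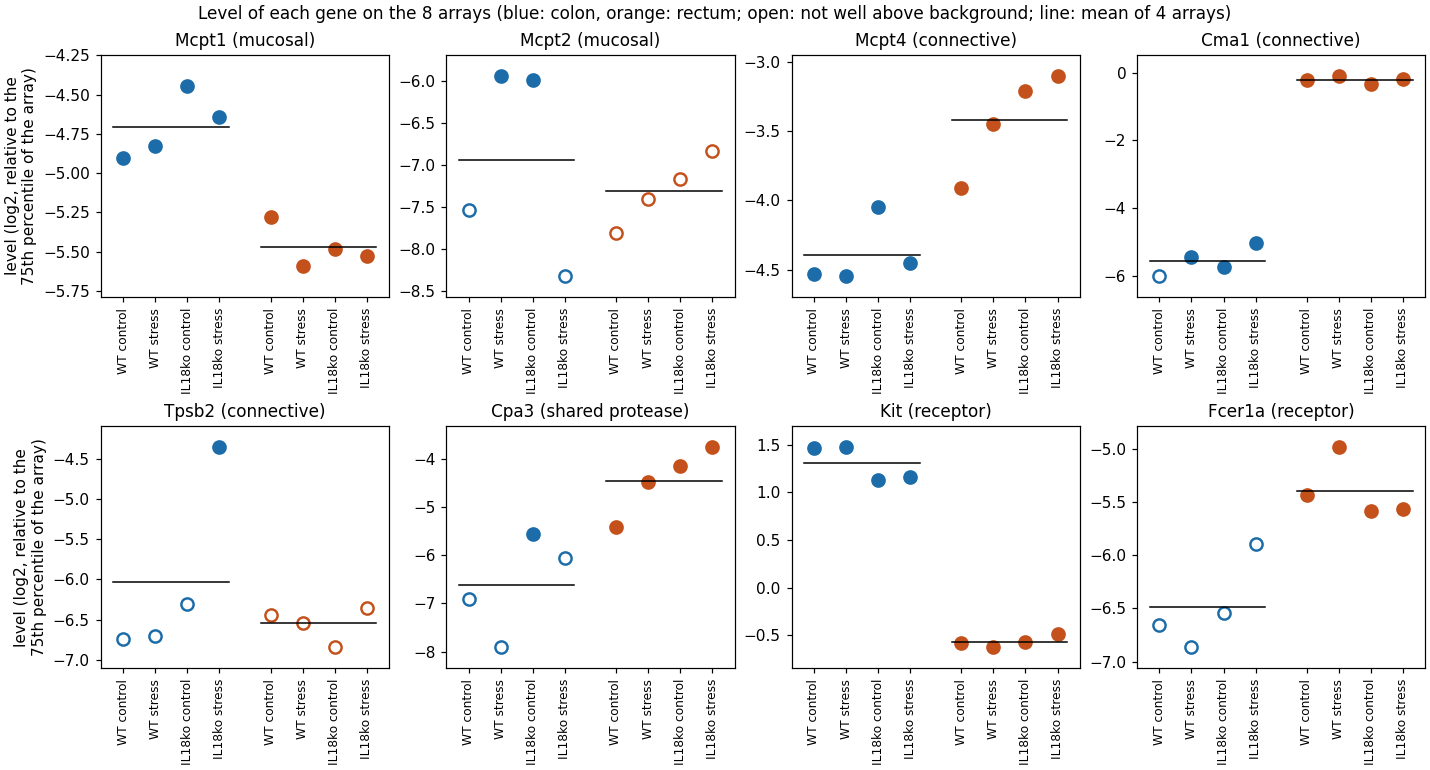
Level of each of the 8 genes (brightest probe) on the 8 arrays, as log2 intensity relative to the 75th percentile of the array, with a separate scale per gene; blue is colon, orange is rectum, open circles are values not well above background and lines are means of 4 arrays. Cma1 lies between -0.32 and -0.09 on the rectum arrays and at or below -5.04 on the colon arrays, while Kit is above 1.1 in colon and below -0.4 in rectum.

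The mucosal chymases came first in the comparison. Mcpt1, which mucosal mast cells release during nematode infection, was at -4.91 in WT control colon, -4.83 in WT stress colon, -4.45 in IL18ko control colon and -4.64 in IL18ko stress colon. In rectum it was at -5.28, -5.59, -5.48 and -5.53 in the same order. The colon arrays were all above the rectum arrays, yet the probe was dim in both tissues, at intensities of 12.0 to 32.8 units. The level fell by 0.77 ± 0.20 from colon to rectum (SE, n = 4 pairs, limma adjusted p = 0.0314), which is 1.70-fold lower, with the same direction in 4 of 4 pairs. The call was lost without the WT control pair (-0.90, limma adjusted p = 0.0626), the IL18ko control pair (-0.67, 0.145) or the IL18ko stress pair (-0.73, 0.0985), and under a model-based background correction (-0.15, 0.293).

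Mcpt2, a chymase-like protease that mucosal mast cells express beside Mcpt1, was well above background on 2 arrays. These were WT stress colon at -5.94 and IL18ko control colon at -5.98. The other colon arrays read -7.53 and -8.32, and the rectum arrays -7.81, -7.40, -7.17 and -6.83, all not well above background. Mcpt2 was thus close to background on 6 arrays, among them all 4 of rectum. When probes above background on at least 1 of 8 arrays were tested too, Mcpt2 differed between tissues by -0.36 with a limma adjusted p of 0.694.

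Of the connective tissue type proteases, Cma1 was at -6.01, -5.46, -5.74 and -5.04 in the colon of WT control, WT stress, IL18ko control and IL18ko stress mice. In rectum it was at -0.21, -0.09, -0.32 and -0.19. The rectum values spanned 0.23 log2 units across both genotypes and both housings, and the gap to the colon values was many times that span. The difference was 5.36 ± 0.18 (SE, n = 4 pairs, limma adjusted p = 1.2e-05), and the single pairs ranged from 4.85 to 5.79. Background-corrected intensities before scaling ran from 12.7 to 20.1 units in colon and from 543 to 667 in rectum. Colon WT control was not well above background, so the fold carries the noise of low signals on the colon side. A dimmer Cma1 probe was well above background on no colon array but on all 4 rectum arrays, at -2.52, -2.37, -2.74 and -2.40, which put it at least 13.3-fold higher in rectum. It entered the test only through rectum, so its limma adjusted p of 6.21e-05 adds no support. Such a bound sets the rectum mean against the lowest signal that passed the background flag on each colon array, or the probe's own signal where that was higher. A different background limit gives a different fold, so "at least" here and below holds against that limit only. Model-based background correction reduced the difference of the brighter probe to 3.11 and kept the call.

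Mcpt4, the chymase with the cleavage preference closest to human chymase, was at -4.53, -4.55, -4.04 and -4.45 in colon and at -3.91, -3.45, -3.21 and -3.10 in rectum, in the same order of mouse groups. All 8 values were well above background, and the rectum arrays lay above the colon arrays with a small gap. The level was higher in rectum by 0.98 ± 0.17 (SE, n = 4 pairs, limma adjusted p = 0.00814), or 1.97-fold, in 4 of 4 pairs. A dimmer Mcpt4 probe was not above background on any colon array and above it on all 4 in rectum. By the bound described for Cma1 it gave 2.53-fold (fitted difference 2.36 ± 0.34, limma adjusted p = 0.00357). That is more than the 1.97-fold of the brighter probe, so it is no minimum for the gene. The dimmer probe entered the test only through rectum, so its call and direction add no support to those of the brighter probe. The mean of both gave 1.67. Under model-based background correction the difference of the brighter probe was 0.44 and still called.

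Tpsb2, the tryptase of connective tissue mast cells, was well above background on 1 array, IL18ko stress colon, at -4.35. The other colon arrays read -6.75, -6.71 and -6.31 and the rectum arrays -6.44, -6.54, -6.85 and -6.35. The rectum arrays, on which Cma1 and Mcpt4 were higher, thus did not read well above background with this probe. With the wider filter its rectum minus colon difference was -0.52 (limma adjusted p = 0.450).

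Cpa3, a carboxypeptidase stored with the chymases in the granule, read -6.91, -7.91, -5.55 and -6.07 in colon, of which only IL18ko control was well above background. In rectum it was at -5.42, -4.49, -4.16 and -3.77, well above background on all 4 arrays. The tissues did not overlap, but the highest colon value, in IL18ko control, came close to the lowest rectum value, in WT control. The difference was 2.15 ± 0.37 (SE, n = 4 pairs, limma adjusted p = 0.00698), but with 3 of 4 colon arrays not well above background its size is not settled and no fold is given. Setting all low signals to 1 common floor gave 1.37 and model-based background correction 0.55, both still called.

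Among the receptors, Kit had the opposite direction to Cma1, Mcpt4 and Cpa3. Its probe is printed 10 times on the array, and the spots of 1 array differed with an SD of 0.040 to 0.073. Kit was at 1.46, 1.47, 1.12 and 1.16 in the colon of WT control, WT stress, IL18ko control and IL18ko stress mice and at -0.58, -0.63, -0.57 and -0.49 in rectum. The level fell by 1.87 ± 0.12 from colon to rectum (SE, n = 4 pairs, limma adjusted p = 0.000145), 3.66-fold, in 4 of 4 pairs and under all alternatives tried. Markers of interstitial cells of Cajal were divided: of 5 on the list 4 were measured, and each was limma called, beside 27.0% of all probes. Edn3 fell by 2.67, Prkcq by 1.74 and the transcription factor Etv1 by 1.47 while Thbs4 was 1.29 higher. The summed level of these markers, to which Thbs4 contributes most, ran from 4.48 to 5.17 in colon and from 5.75 to 6.55 in rectum. Ano1 has no named probe here. Enteric neuron and glia markers fell as well: all 5 that could be tested of 8 on the list, again beside 27.0% called among all probes. Their sums ran from 3.78 to 4.11 in colon and from 1.90 to 2.53 in rectum. The part of these cells in the Kit difference was not tested.

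Fcer1a read -6.65, -6.87, -6.54 and -5.90 in colon, none well above background, and -5.43, -4.99, -5.58 and -5.57 in rectum, all well above it. By the bound described for Cma1 rectum was 1.73-fold higher (fitted difference 1.095 ± 0.30, SE, n = 4 pairs, limma adjusted p = 0.0383). That fold is no strict minimum, since the common floor and the model-based background correction gave smaller differences. Fcer1a entered the test only through rectum, so its limma adjusted p adds no support. Its call was also the weakest of the 6. It was lost with the WT control pair left out (1.05, limma adjusted p = 0.138), the WT stress pair (0.83, 0.0618) or the IL18ko control pair (1.14, 0.114), with the wider filter (1.095, 0.0530), with the common floor (0.52, 0.0661) and with model-based background correction (0.26, 0.117).

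**Figure D2:**
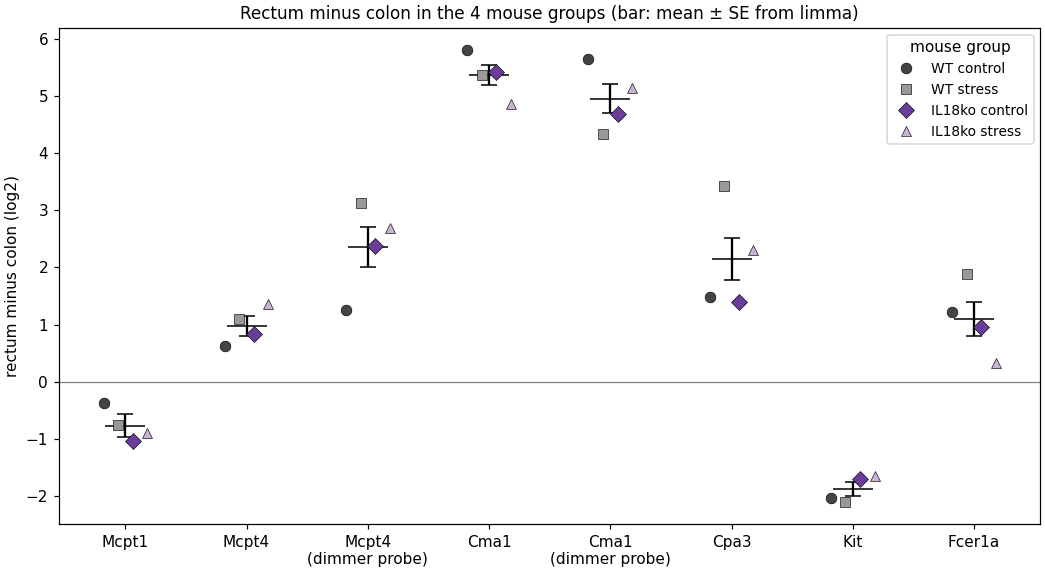
Rectum minus colon difference (log2) in each of the 4 mouse groups for the probes that could be tested, with the mean and SE from limma as bars. Both Cma1 probes lie between 4.34 and 5.79 in all groups, Mcpt4, Cpa3 and Fcer1a lie above 0 and Mcpt1 and Kit below 0 in 4 of 4 pairs. Fcer1a and the dimmer probes of Cma1 and Mcpt4 had no colon array well above background and Cpa3 had 1. The sizes of their differences are thus not settled.

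Other genes associated with mast cells, listed from general knowledge, did not share 1 direction. Of 29 such genes 26 have a named probe and 20 could be tested: 5 were higher in rectum, 6 were lower and 9 did not pass, with a median difference of 0.13; of all probes 27.0% were called. The serotonin transporter Slc6a4 was 2.68 ± 0.12 higher (limma adjusted p = 3.4e-05), and the prostaglandin D synthase Hpgds was 1.69 ± 0.14 higher (limma adjusted p = 0.000337). The protease Ctsg and the activating receptor Cd200r3 were not above background on any colon array and were at least 3.68-fold and at least 2.74-fold higher in rectum. Both passed the filter only through rectum, so that these 2 of the 5 could hardly have been counted otherwise. Fcer1g, the signalling chain of the IgE receptor, was 0.51 ± 0.15 higher (limma adjusted p = 0.0498). The largest fall was that of Il1rl1, the interleukin 33 receptor, by 4.68 ± 0.45 (limma adjusted p = 0.000674), with a further probe that fell by 1.66. The leukotriene enzymes Alox5 and Ltc4s fell by 1.96 and 0.72, the transmembrane tryptase Tpsg1 by 1.92, the vesicular monoamine transporter Slc18a2 by 1.73 and the secretory GTPase Rab27b by 0.88. Hdc, the histamine-forming enzyme, differed by -0.16 (limma adjusted p = 0.710), and Gata2, a transcription factor of the lineage, by 0.47 (0.110). Several of these genes are also expressed by other cells of the gut. Mcpt9, Mrgprb1, Mrgprb2 and Il9r were not well above background on any array.

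**Figure D3:**
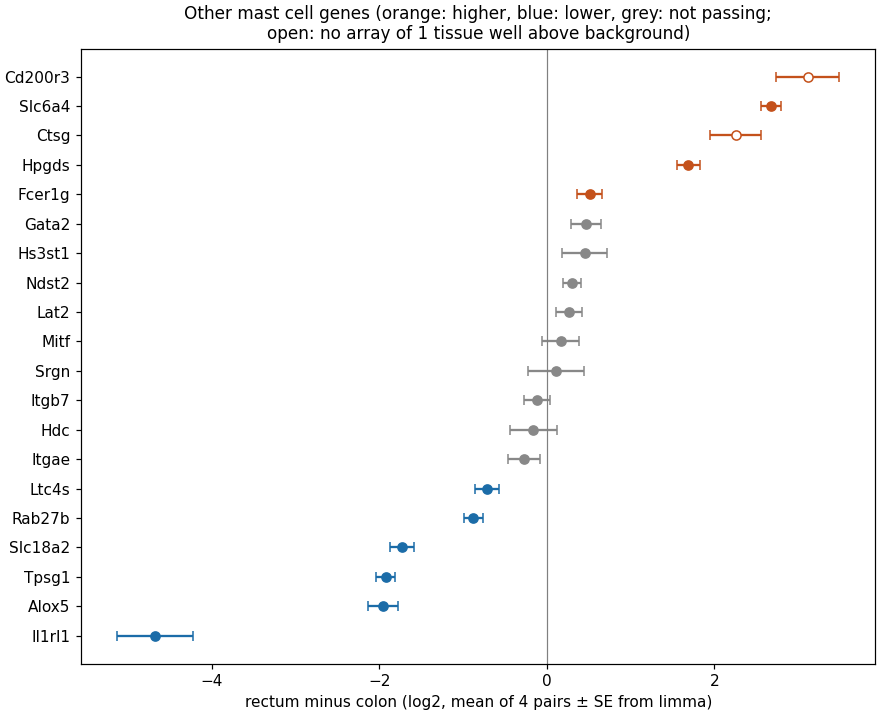
Rectum minus colon difference (log2, mean of 4 pairs with the SE from limma) of the 20 other mast cell genes that could be tested; orange passed as higher, blue passed as lower, grey did not pass, and open circles mark genes with no array of 1 tissue well above background. The values run from -4.68 for Il1rl1 to 3.11 for Cd200r3, and 9 of the 20 genes did not pass.

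Of 12 growth factors and cytokines that act on mast cells, 7 could be tested, 2 were higher in rectum, 1 was lower and 4 did not pass, beside 27.0% called among all probes. Il33, an alarmin that activates mast cells, was at -1.97, -2.30, -1.94 and -1.45 in colon and at -0.11, 0.64, -0.05 and -0.52 in rectum. It was 1.91 ± 0.29 higher in rectum (limma adjusted p = 0.00443), whereas its receptor Il1rl1 was lower. Tgfb1, which induces Mcpt1 in cultured mast cells, was 0.51 ± 0.14 higher (limma adjusted p = 0.0399). Kitl, the ligand of Kit, fell by 0.55 ± 0.15 (limma adjusted p = 0.0334), the same direction as Kit. Il3, Il4, Il9, Il10 and Csf2 were not well above background on any array.

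Cma1, Mcpt1, Mcpt2 and Mcpt4 belong to a run of 15 protease genes on chromosome 14, with Cma1 at one end and Gzmb at the other. In RefSeq order Cma1 is followed by Cma2, Mcpt1, Mcpt2, Mcpt9, Mcpt4, Mcpt8 and Ctsg, and then by 7 granzyme genes. Neighbours did not move together: Cma1, Mcpt4 and Ctsg were higher in rectum, Mcpt1 between them was lower, and Mcpt9 and Mcpt8 were not well above background anywhere. Gzmb, a granzyme of cytotoxic lymphocytes, fell by 2.56 ± 0.27 (limma adjusted p = 0.000974). How far probes of these related genes can tell the transcripts apart was not tested.

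Markers of other cell types also differed between the tissues, against 27.0% called among all probes. The basophil protease Mcpt8 was not well above background on any array. Of the 4 tested basophil markers 3 were higher in rectum (Cd200r3, also on the mast cell list, Prss34 by 0.88 and Il3ra by 0.66). The summed level of the 6 ran from -1.03 to -0.59 in colon and from -0.31 to 0.17 in rectum. Cd200r3 passed the filter only through rectum, which by itself favours a difference. The counts below were not adjusted for such markers. Of 10 fibroblast and connective tissue markers 5 were higher in rectum (sums 5.99 to 6.76 in colon, 6.51 to 7.17 in rectum), as were 5 of 6 tested squamous epithelium and skin markers (1.13 to 1.48 and 1.88 to 2.60) and 5 of 9 skeletal muscle markers (1.66 to 2.55 and 2.69 to 7.37). Also higher were 3 of 4 tested neutrophil markers (-3.92 to -3.43 in colon, 0.50 to 1.28 in rectum) and 4 of 6 macrophage markers (4.50 to 5.31 and 5.03 to 6.37). Lower in rectum were 6 of 7 adipocyte markers (4.81 to 5.87 and 3.47 to 5.204). Of 8 T and NK cell markers 3 were called lower (sums -1.39 to -0.64 and -2.37 to -1.71). The other 5 did not pass and differed in both directions. B and plasma cell markers were divided, with 2 higher and 3 lower of 6. None of the 8 smooth muscle markers passed. Their sums ran from 9.09 to 9.68 in colon and from 8.90 to 9.47 in rectum, so samples described as mucosa also gave smooth muscle signal. Connective tissue type mast cells live in several of these tissues, and the part of these tissues and cells in the Cma1, Mcpt4 and Cpa3 differences was not tested.

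Genotype was compared with limma on the mean of colon and rectum of each mouse group, housing being fitted beside it with 1 residual degree of freedom. Of the 6 tested genes Cpa3 alone passed, where 11.6% of all probes did. That share itself depended on the fit: the 3047 probes called fell to 18 without the variance trend and to 32 with 8 independent arrays. In that independent fit, leaving out WT stress rectum gave 3568, and leaving out any other array gave between 6 and 24. These counts compare with 32 and not with 3047. In rectum, where all its values were well above background, Cpa3 was higher in IL18ko than in WT by 1.26 in control and 0.72 in stress mice. In colon the readings differed by 1.35 and 1.85, but 3 of the 4 were not well above background, both stress arrays among them, so these differences have no settled size. The fitted difference was 1.29 ± 0.27 (SE, n = 4 mouse groups, limma adjusted p = 0.0102) and includes the colon readings. Like most genotype calls on these arrays, it was lost in several fits. It was lost with the common floor (0.58, limma adjusted p = 0.0870), with model-based background correction (0.25, 0.142), without the variance trend (1.29, 0.0668) and with the 8 arrays taken as independent (1.29, 0.112). Single arrays were left out of this last fit, in which Cpa3 was not called with all 8 arrays either. There it was not called without WT control colon (1.46, limma adjusted p = 0.307), WT stress colon (0.98, 0.162), IL18ko control colon (1.101, 0.247), IL18ko stress colon (1.33, 0.248), WT control rectum (1.12, 0.283), IL18ko control rectum (1.48, 0.385) or IL18ko stress rectum (1.26, 0.183). Without WT stress rectum the difference was 1.61 (0.0204).

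The other 5 tested genes had limma adjusted p values for genotype from 0.184 to 0.890. Mcpt4 was higher in IL18ko in 4 of 4 pairs, by 0.49 and 0.09 in colon and 0.70 and 0.35 in rectum (fitted 0.41 ± 0.19, limma adjusted p = 0.184). Kit was lower in IL18ko colon by 0.34 and 0.31 log2 units, more than the spread between its spots, and differed by 0.01 and 0.14 in rectum; the spots measure the array and not the mice. The fitted genotype difference of Kit was -0.13 ± 0.11 (limma adjusted p = 0.471), and its dependence on tissue was 0.40 ± 0.45 (limma adjusted p = 0.9999). Of the 20 other mast cell genes Slc18a2 alone passed, higher in IL18ko by 0.63 (limma adjusted p = 0.0159), where 11.6% of all probes did. A further Slc18a2 probe, well above background on all 8 arrays, was 0.47 higher and did not pass (limma adjusted p = 0.0877). The marker counts that follow come from the same fit, which called 11.6% of all probes. Most of those calls were lost in several other fits, as given above. Adipocyte markers differed with genotype too: 7 of 7 were called higher in IL18ko, with a median of 1.41. Their summed level in rectum was 3.47 and 3.95 on the WT arrays and 5.204 and 4.90 on the IL18ko arrays. In colon the sums were 5.87 and 4.81 in WT and 5.85 and 5.87 in IL18ko. Also higher in IL18ko were 5 of 10 fibroblast and connective tissue markers, 4 of 8 smooth muscle markers (median 0.53), 4 of 9 skeletal muscle markers (0.96), 3 of 5 tested enteric neuron and glia markers (0.61) and 3 of 6 endothelial markers (0.49). Not all lists went this way: 2 of 6 tested B and plasma cell markers were called lower in IL18ko. Of 4 tested neutrophil markers 1 was higher and 1 lower, and none of 9 intestinal epithelium markers passed. The part of these tissues and cells in the Cpa3 difference was not tested.

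Isolation was compared in the same fit. With limma none of the 6 tested genes passed, where 0.0876% of all probes did, and their adjusted p values ran from 0.455 to 0.972. 1 of the 6 had an unadjusted p under 0.05. This was Cma1, higher in stress than in control by 0.55 in WT colon, 0.69 in IL18ko colon, 0.12 in WT rectum and 0.13 in IL18ko rectum (fitted 0.37 ± 0.15, limma adjusted p = 0.455). The 2 larger differences are those of the colon, where the signal was close to background. Mcpt1 differed by -0.12 ± 0.24, Mcpt4 by 0.04 ± 0.19, Kit by 0.02 ± 0.11 and Fcer1a by 0.22 ± 0.31 (SE, n = 4 mouse groups). Cpa3 read higher under stress in rectum, by 0.93 in WT and 0.40 in IL18ko; in colon 3 of the 4 readings, both WT arrays among them, were not well above background and no difference is given. Its fitted dependence on tissue, which rests on those readings, did not pass (limma adjusted p = 0.999998). Of the 20 other mast cell genes and the 7 growth factors and cytokines none passed for isolation with limma.

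**Figure D4:**
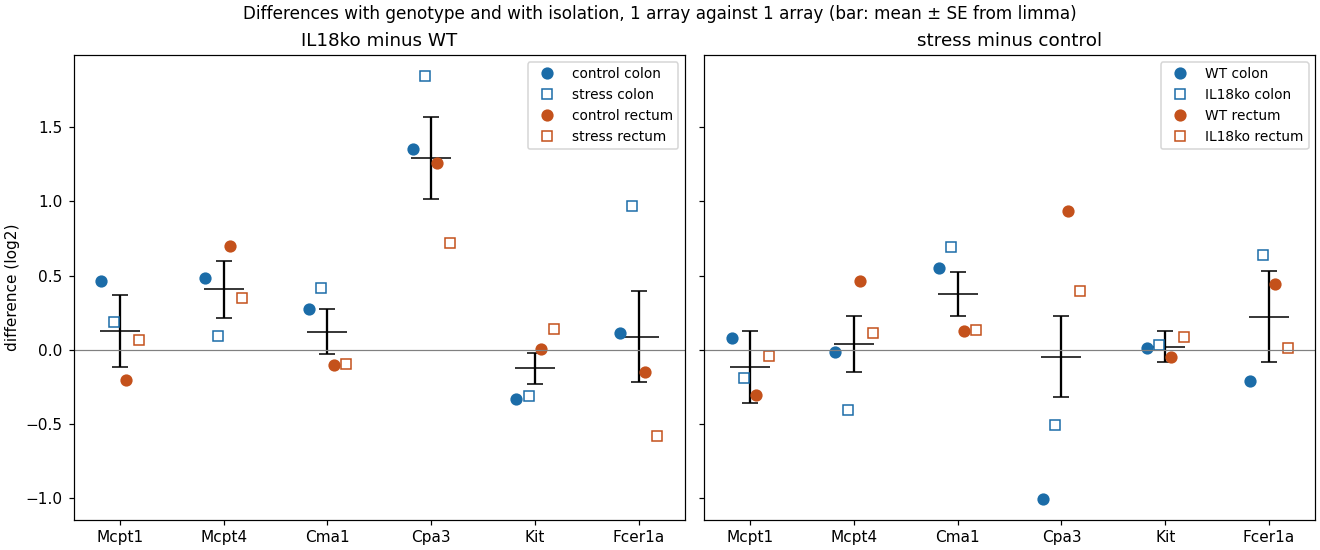
Difference of 1 array minus 1 array (log2) for the 6 tested genes, IL18ko minus WT on the left and stress minus control on the right, in colon (blue) and rectum (orange), with the mean and SE from limma as bars. The genotype differences of Cpa3 in rectum are 1.26 and 0.72; its colon points rest on readings of which 3 of 4 were not well above background.

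Dependence of these differences on tissue was tested by fitting genotype and housing to the 4 rectum minus colon differences. With limma none of the 6 genes passed for genotype, where 0.426% of all probes did, and none for isolation, where 0.19% did. At an unadjusted p under 0.05 there were 0 of 6 for genotype and 1 of 6, Cpa3, for isolation. With 1 array per group the standard errors of these comparisons ran from 0.45 log2 units for Kit to 0.69 for Fcer1a.

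Genes with the most similar profiles were ranked by Pearson r over the 8 arrays among 12705 genes outside the set. For the mean of the connective tissue set (Cma1, Mcpt4 and Tpsb2) they were Slc20a1 and Robo2 at 0.995, Slc1a6 at 0.994 and Ano6 and Smg6 at 0.992. These values follow the difference between 2 tissues and many genes share it. Over deviations from the tissue means the leading genes were Apobr at 0.989, Gpr17 at 0.978, Fmn1 at 0.971, Vegfa at 0.969 and Hoxa13 at 0.967. For the mucosal pair (Mcpt1 and Mcpt2) they were Engase at 0.951, Mertk at 0.900, Atg13 at 0.895, Spred1 at 0.881 and Entpd6 at 0.879, and over deviations from the tissue means Klhdc10 at 0.985, Atp8a2 at 0.964, Trim39 at 0.955, H2-T23 at 0.953 and Muc13 at 0.947. The mucosal mean rests largely on Mcpt2 and the deviations of the connective tissue mean on Tpsb2, both mostly below background.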

How the data were processed

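Processed data were used except in the model-based background correction described below, which started from uncorrected median signals. Per the file headers, the intensity of each spot on these 1-colour arrays was background-corrected by the authors with Feature Extraction 9.5.1.1 and is linear. The authors also deposited a ratio of each array to WT control colon, per the labels; its log2 correlated with ratios from the scanner files at r from 0.995 to 0.999 over 18299 matched features. How the authors scaled arrays is not given in the sources used here.

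Outlier spots were dropped and the others averaged as log2, which left 40963 of 41174 probes; 22850 were named for 16306 genes through RefSeq accessions. Log2 intensities were expressed against the 75th percentile of their own array, and the brightest probe stood for a gene. Probes that passed the background flag on 4 or more of the 8 arrays were tested with limma (variance trend over the mean level, Benjamini-Hochberg). The tissue test pairs colon and rectum of a mouse group, with 3 residual degrees of freedom; that the pools share mice is not stated. Standard errors draw on variance shared across probes, and mostly so for genotype and isolation. The p values measure the spread between pooled arrays of different groups, not between mice.

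All members were named, and of 19 lists of genes the called genes with the largest differences, at most 4 per list (of other mast cell genes, any); Gzmb, Il3ra, Tgfb1 and genes below background were named under the same lists. The members and lists were chosen with earlier results of these data known. No mean signal was given, so model-based background correction (normexp, offset 50) used median signals and left out spots more than 50 units under local background. Scripts were tested on simulated data. Tools were Biopython 1.88, matplotlib 3.10.9, pandas 2.3.3, numpy 2.4.6 and Python 3.11.15, with limma 3.58.1 under R 4.3.3.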

Additional observations from a re-analysis of the deposited data

How the results depend on the processing

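Alternatives were quantile normalization, median centring, normexp background correction, the deposited ratios, a common floor, wider and stricter background filters and no variance trend. Others were the mean of probes, 8 independent arrays, that last fit with 1 array left out and the paired fit with 1 pair left out. The tissue differences of Mcpt4, Cma1, Cpa3 and Kit kept their direction and call in each of these that could test them. Of the 6 tissue calls, 2 remained with the deposited ratios and 3 with the filter at 8 of 8 arrays, where fewer genes were tested; leaving out a pair gave 4 to 5. The genotype count of 1 went to 0 with normexp, the deposited ratios, the common floor, the filter at 8 of 8 arrays, no variance trend and 8 independent arrays, and ranged from 0 to 1 when an array was left out. Cpa3, the gene called, was not among those tested with the deposited ratios or the filter at 8 of 8 arrays. The isolation count was 0 under each of these; with the deposited ratios 2 of the genes were tested and with the filter at 8 of 8 arrays 3. Both counts of dependence on tissue were 0 with quantile normalization and without the variance trend, the alternatives run for them.

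Directions that turned were all among differences that did not pass, and the cause was not tested. For genotype, Fcer1a became -0.045 with normexp, -0.18 with the common floor, -0.14 without WT stress colon and -0.13 without IL18ko stress colon, and Cma1 became -0.015 without IL18ko stress colon. For isolation, Mcpt1 became 0.075 with normexp. Mcpt4 became -0.27 with the mean of probes, -0.10 without WT control rectum, -0.04 without WT stress rectum and -0.01 without IL18ko stress rectum. Cpa3 became 0.22 with normexp, 0.24 with the common floor, 0.12 without WT control colon, 0.27 without WT stress colon and 0.15 without IL18ko control colon. Kit became -0.03 without WT stress colon and without IL18ko control colon, -0.01 without WT control rectum and -0.046 without IL18ko stress rectum. Leaving out 1 array at a time, the highest genotype difference of Fcer1a was 0.25, that of isolation 0.18 for Mcpt4 and 0.086 for Kit, and the lowest of isolation for Cpa3 was -0.37.

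Signal over background limits most of these genes: probes with at least 8 spots had a median SD between spots of 0.44 at levels from -7 to -6, 0.26 from -6 to -5 and 0.055 above 0. The number of arrays limits the precision of every comparison.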
